A study of Mus musculus with 16 samples.

Results

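The 9 genes studied here belong to adult neurogenesis and cell division, and were followed through hippocampal RNA-seq libraries of Kcna1 knockout and wild-type mice on 2 diets. They were taken by gene name from the table of raw counts: Mki67 and Top2a for dividing cells, Eomes, Neurod1, Sox4 and Sox11 for transcription factors of the lineage, and Dcx, Igfbpl1 and Draxin for neuroblasts and immature neurons. Each name matched 1 gene, so 9 of the 49315 genes in the table were described, and all 9 were among the 17469 genes that passed the filter on low counts.

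Kcna1 encodes the Kv1.1 potassium channel, and mice without it have spontaneous seizures. The 16 libraries form 4 groups of 4, which are wild type (WT) and kcna1 knockout (KO) mice, each given a Standard Diet or a Ketogenic Diet (a high-fat diet low in carbohydrate that is used against seizures). The labels give the tissue as Brain, and as hippocampus in the sample descriptions. Age, sex, strain, the length of the diet and the kind of knockout allele are not in the labels, and nothing there says what the animals share beyond genotype and diet.

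New granule neurons are made in the dentate gyrus of the adult rodent hippocampus. Radial glia-like stem cells give rise to dividing intermediate progenitors, these become neuroblasts, and the neuroblasts mature through an immature stage before joining the granule cell layer. Seizures are known to disturb this sequence, and dividing oligodendrocyte precursors and microglia use the same cell cycle genes as the neural progenitors.

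Total counts ran from 13440230 to 22309504 per library. Levels are library-scaled counts (CPM, with TMM scaling), listed library by library. Wild type on the standard diet is KC890RL, KC894RLL, KC897RR and KC900RLL, and knockout on the standard diet is KC872RL, KC873RR, KC888LL and KC893RL. Wild type on the ketogenic diet is KC842L, KC843RL, KC844RR and KC846L, and knockout on the ketogenic diet is KC913RR, KC916RRL, KC934R and KC935LL. Fold changes are log2 values with their standard error (SE) from edgeR's quasi-likelihood test, and a gene was called at an adjusted p (Benjamini-Hochberg, over all 17469 genes) under 0.05. The p-values measure the spread between these libraries, since nothing beyond the labels says how the replicates were obtained. In bulk tissue, fewer cells of a type and less RNA per cell cannot be told apart.

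Kcna1 itself differed with genotype on the standard diet by -1.13 ± 0.15 (adjusted p = 0.0339, edgeR) and on the ketogenic diet by -1.38 ± 0.15 (adjusted p = 0.0032, edgeR). The call on the ketogenic diet held without each of its 8 libraries in turn. On the standard diet it held only without KC888LL (-1.39, adjusted p = 4.1e-10, edgeR), and was lost without any other of its 8 libraries. The library labelled knockout KC888LL held 82.0 CPM of Kcna1, between the 44.6 to 47.0 of the other standard-diet knockouts and the 107 to 130 of wild type. The pairwise comparisons that include it are therefore also given without it for the members, and for genes of the lineage, cell cycle, granule cell and microglia lists whose call it changed. The Y-linked gene Ddx3y measured 56.5 to 65.1 CPM in KC890RL, KC872RL, KC873RR and KC846L, of which KC890RL also held 41.1 CPM of Xist. In the other 12 libraries, all 4 ketogenic-diet knockouts among them, Xist was over 100 CPM and Ddx3y at most 1.62 CPM, so sex by expression was not balanced over the groups. Markers of the hippocampus were present in every library: 12 of 12 dentate granule cell genes summed to 631 to 1108 CPM and 10 of 10 pyramidal cell genes to 585 to 957 CPM. Genes of neighbouring tissue were present too, with choroid plexus markers summing to 30.4 to 1064 CPM and 6 thalamus genes to 80.7 to 166 CPM.

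None of the 9 members was called in any of the 7 comparisons by edgeR. On the standard diet, 0 of 9 differed between knockout and wild type, beside 0.00572% of all tested genes, and 1 member, Top2a, had an unadjusted p under 0.05 where 14.3% of all genes had. On the ketogenic diet, 0 of 9 differed between the genotypes, beside 0.0172% of all genes, and 1 member, Dcx, was under 0.05 unadjusted where 9.22% of all genes were. Between the diets within the knockout, 0 of 9 were called although 1.16% of all genes were, with Top2a under 0.05 unadjusted among 16.9% of all genes. In wild type the diets gave 0 of 9, beside 0.0114% of all genes, with 2 members, Dcx and Eomes, under 0.05 unadjusted among 5.46% of all genes. The interaction of genotype and diet called 0 of 9 members and 0% of all genes, with 0 members and 7.48% of all genes under 0.05 unadjusted. Averaged over the diets, genotype called 0 of 9 and 0.0973% of all genes, with Dcx and Top2a under 0.05 unadjusted among 15.8% of all genes. Averaged over the genotypes, diet called 0 of 9 and 0.899% of all genes, with Eomes under 0.05 unadjusted among 14.4% of all genes. At these background shares, counts of 0 to 2 of 9 are not read as a result about the members.

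DESeq2 called 0 of 9 members in the same 7 comparisons. Its background was larger: 1.03% and 0.305% of genes between the genotypes on the standard and the ketogenic diet, and 4.2% and 0.0687% between the diets in knockout and wild type. For the interaction it was 0.0401%, for the genotype average 2.38% and for the diet average 2.47%. DESeq2 gave no p for Top2a in any comparison and no adjusted p for Eomes between the genotypes on the ketogenic diet. Without KC888LL, edgeR again called 0 of 9 members, although it called 5.73% of all genes between the genotypes on the standard diet and 6.18% between the diets in the knockout. The genotype differences on the standard diet were then 1.89 for Top2a, 0.76 for Mki67, 0.33 for Sox11, 0.18 for Draxin, 0.072 for Sox4 and 0.031 for Dcx. Those of Neurod1 (-0.11), Eomes (-0.082) and Igfbpl1 (-0.014) were below 0, of which Eomes and Igfbpl1 had been above 0 with all libraries. The diet differences in the knockout that moved most were those of Top2a (-1.84), Mki67 (-0.73) and Eomes (-0.89), and the other 6 ran from -0.20 (Sox4) to 0.12 (Neurod1).

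**Figure D1:**
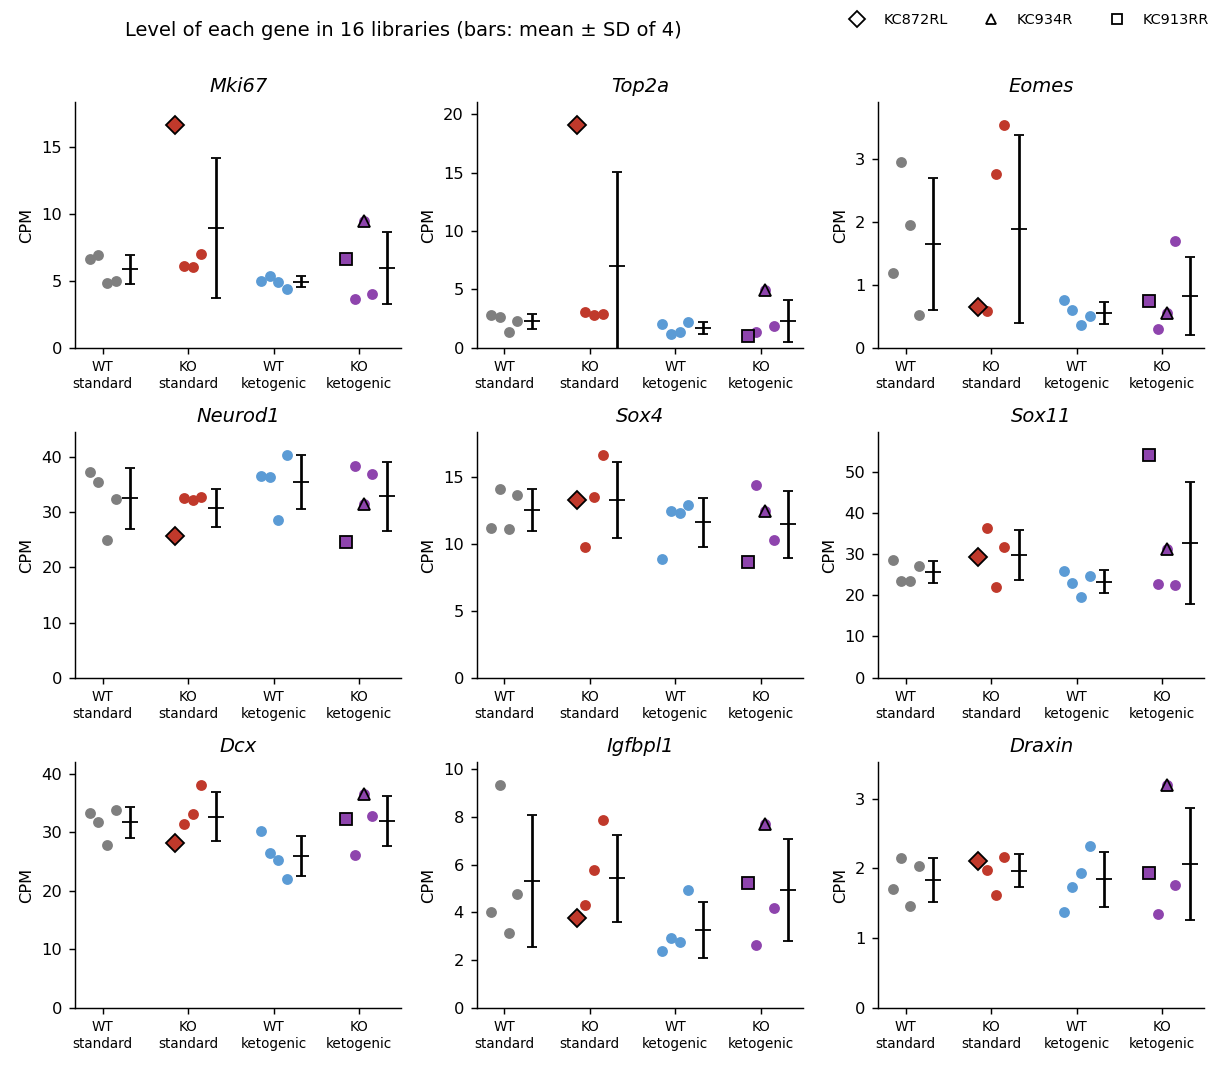
Level of each of the 9 genes in CPM (vertical axis, from 0) in the 4 groups. Each point is 1 library, the black bar is the mean ± SD of 4, and the diamond, triangle and square mark KC872RL, KC934R and KC913RR; the lower Top2a bar of the standard-diet knockout is cut at the axis. KC872RL stands alone for Mki67 at 16.7 CPM and Top2a at 19.1 CPM, and KC913RR for Sox11 at 54.1 CPM.

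Mki67 and Top2a mark dividing cells. Mki67 (ENSMUSG00000031004, GRCm38 chr7:135689784-135716361, minus strand) encodes Ki-67, a protein that coats mitotic chromosomes, and Top2a (ENSMUSG00000020914, chr11:98992943-99024189, minus strand) encodes topoisomerase IIα, which untangles DNA before chromosomes separate. Many genes that peak in G2 and M carry CCAAT boxes, bound by NF-Y, and a TTTGAA element known as a CHR in the promoter. Because both genes were high in the same library, their promoters are shown: the 250 bases before the RefSeq start (GRCm38.p6), read 5′ to 3′ along the gene's strand, at chr7:135716380-135716629 for Mki67 and chr11:99024190-99024439 for Top2a. Capitals mark CCAAT, which reads ATTGG on the other strand, and the element TTTGAA, which reads TTCAAA there.
Mki67: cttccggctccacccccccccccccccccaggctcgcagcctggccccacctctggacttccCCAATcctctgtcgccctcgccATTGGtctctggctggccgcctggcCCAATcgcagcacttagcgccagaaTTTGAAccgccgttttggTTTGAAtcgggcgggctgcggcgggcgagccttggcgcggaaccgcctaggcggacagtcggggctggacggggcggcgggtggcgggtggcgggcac
Top2a: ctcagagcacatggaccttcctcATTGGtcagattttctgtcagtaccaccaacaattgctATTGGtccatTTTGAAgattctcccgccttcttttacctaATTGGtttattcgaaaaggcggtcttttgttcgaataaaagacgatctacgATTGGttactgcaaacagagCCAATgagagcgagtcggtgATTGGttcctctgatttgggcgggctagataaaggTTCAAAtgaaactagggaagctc
The Mki67 window held 3 CCAAT and 2 TTTGAA matches, and the Top2a window held 6 and 2. No base belonged to both motifs. Among 32851 RefSeq promoters, 33.8% held CCAAT at least once in the 250 bases before the start. TTTGAA was found there at least once in 16%, and both in 5.55%. Of the 8 members with a RefSeq promoter, Sox11 also held both, with 1 of each. Sox4 held 4 CCAAT and 0 TTTGAA, Eomes 2 and 0, Neurod1 and Draxin 0 and 0, and the 2 Dcx starts 1 and 0 CCAAT with 0 TTTGAA. These are matches of letters and not tested sites.

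Mki67 measured 6.66, 6.93, 4.87 and 5.03 CPM in standard-diet wild types and 16.7, 6.12, 6.01 and 6.98 CPM in standard-diet knockouts (5.87 ± 1.07 and 8.96 ± 5.21, SD, n = 4 each). One knockout library, KC872RL, was far above the rest, and the other 3 lay within or just above the wild-type range. The ketogenic-diet libraries held 5.03, 5.40, 4.95 and 4.37 CPM in wild type and 6.62, 3.66, 9.50 and 4.05 CPM in the knockout (4.94 ± 0.424 and 5.96 ± 2.70). The knockout values spread to both sides of wild type, with KC934R at the top. The genotype difference was 0.62 ± 0.34 on the standard diet (adjusted p = 0.423, edgeR) and 0.28 ± 0.34 on the ketogenic diet (adjusted p = 0.831, edgeR). Without KC872RL the first was 0.12, and without KC934R the second was -0.05. The diet difference was -0.58 ± 0.33 in the knockout (adjusted p = 0.398, edgeR), or -0.08 without KC872RL and -0.91 without KC934R, and -0.25 ± 0.35 in wild type (adjusted p = 0.999, edgeR).

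Top2a followed the same 2 libraries more steeply. It measured 2.76, 2.63, 1.32 and 2.29 CPM in standard-diet wild types and 19.1, 3.09, 2.81 and 2.92 CPM in standard-diet knockouts (2.25 ± 0.650 and 6.97 ± 8.06, n = 4 each). The 4 knockout values lay above all 4 wild-type values, 3 of them by little and KC872RL by far. Its levels on the ketogenic diet were 2.03, 1.13, 1.30 and 2.23 CPM in wild type and 1.00, 1.35, 4.97 and 1.82 CPM in the knockout (1.67 ± 0.540 and 2.29 ± 1.82). These groups overlapped, with KC934R above and KC913RR below all wild-type libraries. Between the genotypes on the standard diet Top2a differed by 1.64 ± 0.66 (adjusted p = 0.293, edgeR), by 0.38 without KC872RL and by 1.89 without KC888LL (adjusted p = 0.124, edgeR). Between the diets in the knockout it differed by -1.59 ± 0.66 (adjusted p = 0.242, edgeR), by -0.33 without KC872RL and by -2.32 without KC934R. The ketogenic-diet genotype difference was 0.47 ± 0.71 (adjusted p = 0.870, edgeR) and turned to -0.27 without KC934R. The diet difference in wild type was -0.42 ± 0.72 (adjusted p = 0.999, edgeR).

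Other cell cycle genes were also high in KC872RL. A list of 30 genes of G2 and M phase had 25 tested members, among them cyclins, kinesins and kinetochore proteins. In KC872RL, 23 of these 25 had their highest value of the 16 libraries, beside 12.4% of all 17469 genes. All 25 lay above their own median over libraries there, by a median of 1.27 on the log2 scale. KC934R came next, with 23 of 25 above their median and a list median of 0.39. For 19 tested S phase genes, such as the MCM helicase subunits, 12 were highest in KC872RL and the list median was 0.48. In KC934R the S phase list had a median of -0.011 with 8 of 19 above, so it did not share the height of the G2 and M genes there.

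**Figure D2:**
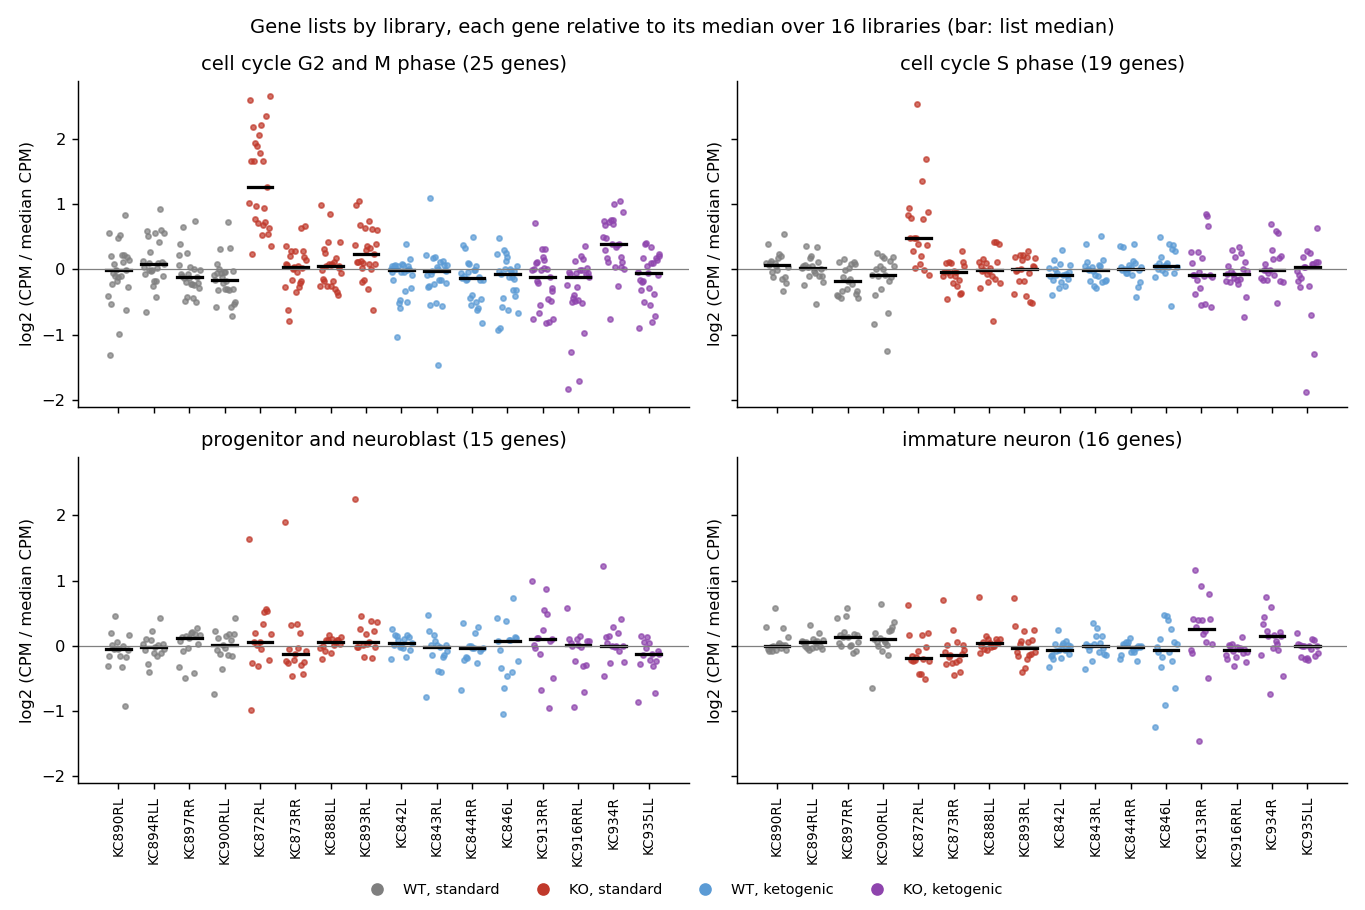
Log2 of a gene's CPM (0.1 CPM added) over its median of the 16 libraries (vertical axis), for 4 gene lists: 25 genes of G2 and M phase, 19 of S phase, 15 of progenitors and neuroblasts, and 16 of immature neurons. Points are genes and bars are list medians; the G2 and M genes sit high in KC872RL, with a median of 1.27, while the immature neuron list there has a median of -0.19.

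Between the genotypes on the standard diet, 25 of 25 G2 and M genes had a fold change above 0, with a median of 0.54 beside 0.0044 for all genes. None was called, and 10 had an unadjusted p under 0.05 in edgeR. Among all tested genes 51.1% were above 0, and 14.3% had an unadjusted p under 0.05. Without KC872RL, 16 of 25 were above 0 and the median was 0.09. The gene of smallest p was Ckap2l, a spindle protein, which measured 0.565, 1.08, 0.556 and 0.457 CPM in wild type and 4.98, 1.17, 0.974 and 0.951 CPM in the knockout. KC872RL was again far above, and the others overlapped with 1 wild-type library (1.62 ± 0.52, adjusted p = 0.207, edgeR). Without KC888LL the filter on low counts was run anew, 27 of the listed genes were tested and 27 were above 0. Ckap2l (1.84 ± 0.51, adjusted p = 0.0433), the spindle midzone protein gene Prc1 (0.51 ± 0.14, adjusted p = 0.0405) and the spindle assembly factor Tpx2 (1.19 ± 0.34, adjusted p = 0.0494) were then called higher by edgeR. That fit called 5.73% of all genes and still held KC872RL. Prc1 and Tpx2 measured 13.9 and 8.95 CPM in KC872RL, against at most 9.20 and 3.11 CPM in the other libraries of its group. S phase genes gave 16 of 19 above 0 with a median of 0.27, or 0.03 without KC872RL, and 0 called (2 at an unadjusted p under 0.05). Hells, a chromatin remodeller, had the smallest p (0.37, adjusted p = 0.261, edgeR). Without KC888LL the S phase median was 0.30, again with 0 called.

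Between the diets in the knockout the same lists lay mostly below 0. Of the G2 and M genes, 22 of 25 were below 0 with a median of -0.43, or -0.10 without KC872RL. Of these 25, 0 were called and 7 were under 0.05 unadjusted. Among all tested genes 48.5% were below 0, and 16.9% were under 0.05 unadjusted. Ccnb1, a mitotic cyclin, had the smallest p (-2.06 ± 0.56, adjusted p = 0.081, edgeR). It was called lower without KC888LL (-2.20, adjusted p = 0.0335, edgeR) and without KC934R (-3.04, adjusted p = 0.0328, edgeR). The first fit called 6.18% of all genes, and the second called 191 of 17715. S phase genes gave 15 of 19 below 0 with a median of -0.20, or 0.0024 without KC872RL, and 0 called (1 under 0.05 unadjusted). Gins2, a replication helicase factor, had the smallest p but lay higher on the ketogenic diet (0.68 ± 0.25, adjusted p = 0.172, edgeR). Without KC888LL the S phase median was -0.23, and 0 were called. On the ketogenic diet 19 of 25 G2 and M genes were above 0 between the genotypes (median 0.13). That median ran from 0.013 to 0.23 when 1 library was left out. Of the 25, 0 were called and 1 was under 0.05 unadjusted, where 9.22% of all genes were. Prc1 had the smallest p (0.30, adjusted p = 0.542, edgeR). In wild type the diets gave 10 of 25 above 0 (median -0.05, or down to -0.17 when 1 library was left out). There 0 were called and 1 was under 0.05 unadjusted, as were 5.46% of all genes. Cdca8, of the chromosomal passenger complex, had the smallest p (-0.60, adjusted p = 0.915, edgeR).

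KC872RL also stood apart in marker genes of other cells that can divide. The summed level of 10 oligodendrocyte precursor markers was 1053 CPM there and 321 to 578 CPM in the other 15 libraries, and 7 of the 10 were highest there. Within that list Gpr17, a receptor of committed precursors, measured 387 CPM against a mean of 89.2 CPM in the other 3 libraries of its group. Pdgfra and Cspg4, the markers of early precursors, were at their lowest of 16 libraries there, at 40.8 and 19.0 CPM (these 3 genes were picked after their values were seen). The microglia markers summed to 572 CPM in KC872RL and 582 CPM in KC873RR, against 248 to 306 CPM elsewhere. As a list they lay on the same side as the G2 and M genes in some comparisons and not in others: 10 of 10 were above 0 between the genotypes on the standard diet (median 0.58, 8 under 0.05 unadjusted) and 10 of 10 below 0 between the diets in the knockout (median -0.76, 9 under 0.05 unadjusted). Between the genotypes on the ketogenic diet 9 of 10 were below 0 (median -0.12), where 19 of 25 G2 and M genes were above. The G2 and M median there ran from 0.013 to 0.23 when 1 library was left out. KC873RR, with the highest microglia sum, had a G2 and M median of 0.033, and KC934R, second for G2 and M, was at 267 CPM of the microglia markers. In those standard-diet and knockout comparisons, 14.3% and 16.9% of all genes were under 0.05 unadjusted. No microglia marker was called with all libraries. Without KC888LL edgeR called 7 of them between the genotypes on the standard diet and 9 between the diets in the knockout. Those fits called 5.73% and 6.18% of all genes. Reactive astrocyte markers summed to 2892 CPM in KC872RL, 2482 CPM in KC913RR, 1634 CPM in KC873RR and 1286 CPM in KC934R, and to at most 784 CPM elsewhere. The part of these cells in the cell cycle values was not tested.

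Members of the neuronal lineage did not share this height in KC872RL. Relative to the mean of the other 3 libraries of its group, that library held 6.48 times the Top2a and 2.63 times the Mki67. It held 0.787 times the Neurod1, 0.821 times the Dcx, 0.63 times the Igfbpl1 and 0.285 times the Eomes. Sox4 (0.997), Sox11 (0.972) and Draxin (1.1) were near the other libraries. The list of 15 tested progenitor and neuroblast genes had a median of 0.05 there, and the 16 immature neuron genes a median of -0.19 with 4 of 16 above their median.

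Eomes (ENSMUSG00000032446, chr9:118478212-118486132, plus strand) encodes Tbr2, a T-box factor of intermediate progenitors, and was the scarcest member, with 4 to 56 counts per library. It measured 1.19, 2.96, 1.95 and 0.523 CPM in standard-diet wild types and 0.654, 0.583, 2.76 and 3.55 CPM in standard-diet knockouts (1.66 ± 1.05 and 1.89 ± 1.5, n = 4 each). Both groups held high and low libraries and overlapped over most of their range. Ketogenic-diet levels were 0.762, 0.594, 0.354 and 0.501 CPM in wild type and 0.736, 0.299, 0.552 and 1.70 CPM in the knockout (0.553 ± 0.171 and 0.823 ± 0.614). The ketogenic-diet libraries were low except KC935LL, and the standard-diet groups reached down into their range. Averaged over the genotypes the diet difference was -1.35 ± 0.45 (adjusted p = 0.185, edgeR), the nearest of any member to a call, and -1.22 without KC888LL (adjusted p = 0.183, edgeR): it was -1.15 ± 0.63 in the knockout (adjusted p = 0.372, edgeR) and -1.56 ± 0.66 in wild type (adjusted p = 0.867, edgeR). DESeq2 gave the diet average an adjusted p of 0.0583. The knockout value was -0.67 without KC893RL and -1.79 without KC935LL, and the wild-type value -1.12 without KC894RLL. Between the genotypes Eomes differed by 0.18 ± 0.59 on the standard diet (adjusted p = 0.922, edgeR) and 0.59 ± 0.70 on the ketogenic diet (adjusted p = 0.828, edgeR).

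High Eomes went with high Zic1, a zinc finger factor of dorsal midline and septal cells that was picked after its values were seen. Zic1 measured 45.9 to 62.0 CPM in KC894RLL, KC888LL, KC893RL and KC935LL, and 6.34 to 22.3 CPM in the other 12 libraries. Eomes was 1.70 to 3.55 CPM in those 4 libraries and 0.299 to 1.95 CPM in the other 12. Of these 4, 3 were standard-diet libraries, and 1 was on the ketogenic diet. The part of this tissue in the Eomes difference was not tested.

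Neurod1 (ENSMUSG00000034701, chr2:79452521-79456751, minus strand), a helix-loop-helix factor that granule neurons need to form, was even across the groups. It measured 37.4, 35.5, 24.9 and 32.5 CPM in standard-diet wild types and 25.7, 32.7, 32.2 and 32.8 CPM in standard-diet knockouts (32.6 ± 5.51 and 30.9 ± 3.47, n = 4 each). The ketogenic-diet libraries held 36.6, 36.5, 28.6 and 40.4 CPM in wild type and 24.7, 38.5, 31.6 and 36.9 CPM in the knockout (35.5 ± 4.94 and 32.9 ± 6.24). The groups overlapped on both diets, and the 2 lowest knockout libraries were KC872RL and KC913RR. The fold changes were -0.08 and -0.11 between the genotypes and 0.10 and 0.13 between the diets, each with an SE of 0.15. Exons of Cerkl cover 7.37% of its exon bases on the same strand, and Cerkl itself had 32 to 88 counts.

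Sox4 and Sox11 are SoxC factors that switch on neuronal genes in newborn neurons, Dcx among them. Sox4 (ENSMUSG00000076431, chr13:28948919-28953713, minus strand) ranged from 8.70 to 16.7 CPM. Its group means were 12.5 ± 1.58 and 13.3 ± 2.82 CPM on the standard diet (wild type, then knockout) and 11.6 ± 1.85 and 11.5 ± 2.52 CPM on the ketogenic diet (n = 4 each). All 4 groups overlapped, and the fold changes ran from -0.21 to 0.08 with an SE of 0.17. The opposite-strand lincRNA Gm26735 covers 54.6% of its exon bases and had 0 to 2 counts; the use of strand in counting is not stated.

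Sox11 (ENSMUSG00000063632, chr12:27334264-27342574, minus strand) was high in 1 ketogenic-diet knockout. It measured 28.6, 23.4, 23.4 and 27.1 CPM in standard-diet wild types and 29.2, 36.3, 21.9 and 31.8 CPM in standard-diet knockouts (25.6 ± 2.63 and 29.8 ± 6.02, n = 4 each). All knockout libraries except KC888LL lay above every wild-type one. Its levels on the ketogenic diet were 26.0, 23.0, 19.5 and 24.7 CPM in wild type and 54.1, 22.8, 31.3 and 22.4 CPM in the knockout (23.3 ± 2.82 and 32.7 ± 14.9). KC913RR and KC934R were above wild type and the other 2 inside its range. The genotype difference was 0.22 ± 0.24 on the standard diet (adjusted p = 0.739, edgeR) and 0.48 ± 0.24 on the ketogenic diet (adjusted p = 0.568, edgeR), and the latter was 0.14 without KC913RR. The former was 0.11 without KC873RR and 0.33 without KC888LL. In KC913RR, 7 of 16 immature neuron genes were at their highest of all libraries (43.8%), as were 16.7% of all tested genes.

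**Figure D3:**
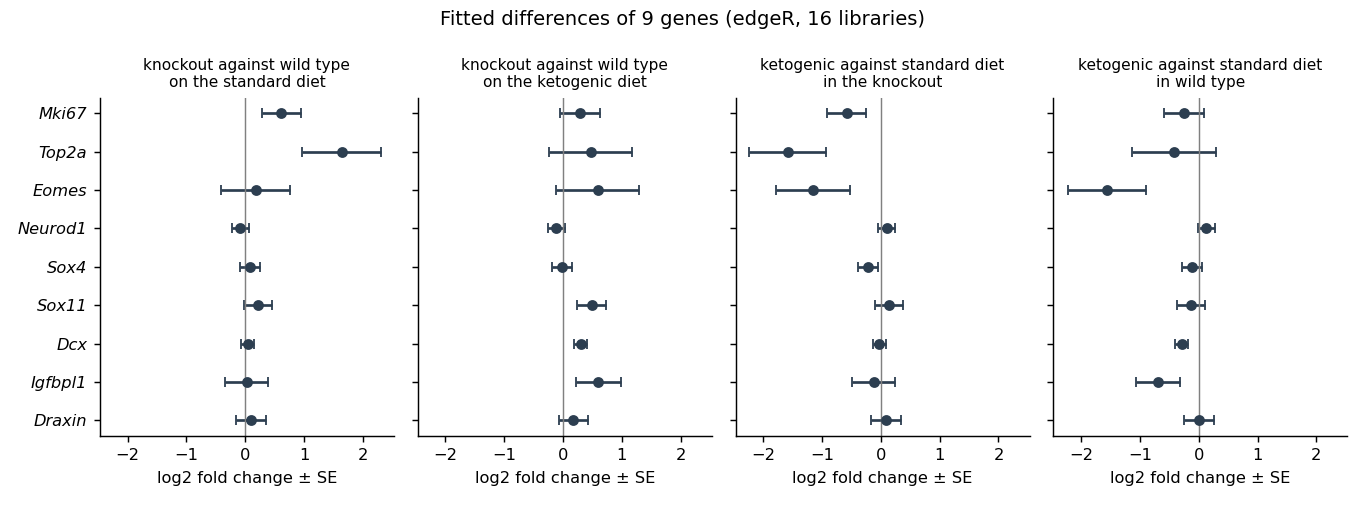
Log2 fold change ± SE from edgeR (horizontal axis) of the 9 genes in the 4 pairwise comparisons. The intervals of Top2a and Eomes are the widest, with SE of 0.59 to 0.72, those of Dcx the narrowest at 0.11, and no gene was called.

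Dcx (ENSMUSG00000031285, chrX:143855842-143933311, minus strand) encodes doublecortin, a microtubule-binding protein of migrating neuroblasts and the usual marker of adult-born neurons. On the standard diet it measured 33.2, 31.7, 27.8 and 33.8 CPM in wild type and 28.1, 31.4, 33.1 and 38.1 CPM in the knockout (31.7 ± 2.71 and 32.7 ± 4.20, n = 4 each). These groups overlapped, with a difference of 0.04 ± 0.11 (adjusted p = 0.899, edgeR). Ketogenic-diet levels were 30.2, 26.4, 25.2 and 22.0 CPM in wild type and 32.2, 26.1, 36.5 and 32.8 CPM in the knockout (25.9 ± 3.42 and 31.9 ± 4.30). All knockout libraries except KC916RRL lay above every wild-type one. The genotype difference there was 0.30 ± 0.11 and the diet difference in wild type was -0.29 ± 0.11, with unadjusted p of 0.0147 and 0.0195 and adjusted p of 0.448 and 0.807 in edgeR. Both rest on the wild-type ketogenic-diet group, which they share. In the knockout the diets differed by -0.03 ± 0.11 (adjusted p = 0.926, edgeR). The interaction was 0.26 ± 0.16 (adjusted p = 0.739, edgeR), so a difference between the genotypes in the diet response was not called. In the 12 libraries with Xist over 100 CPM and Ddx3y under 10 CPM, the interaction was 0.042. The only standard-diet knockouts among these 12 were KC893RL and KC888LL, the library with the intermediate Kcna1 level. In the same 12 libraries the genotype difference on the standard diet was 0.19. The diet difference there was -0.15 in the knockout and -0.20 in wild type.

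Igfbpl1 (ENSMUSG00000035551, chr4:45809468-45826923, minus strand), a secreted protein related to the IGF-binding proteins that neuroblasts express, varied more. It measured 4.02, 9.36, 3.13 and 4.77 CPM in standard-diet wild types and 3.77, 4.31, 5.79 and 7.87 CPM in standard-diet knockouts (5.32 ± 2.77 and 5.44 ± 1.83, n = 4 each). The ketogenic-diet libraries held 2.39, 2.91, 2.77 and 4.96 CPM in wild type and 5.22, 2.62, 7.73 and 4.17 CPM in the knockout (3.26 ± 1.16 and 4.94 ± 2.15). The groups overlapped on both diets, and KC894RLL was the highest of all libraries. The genotype difference was 0.03 ± 0.37 on the standard diet (adjusted p = 0.984, edgeR) and 0.60 ± 0.38 on the ketogenic diet (adjusted p = 0.642, edgeR), the latter 0.29 without KC934R. The diet difference in wild type was -0.70 ± 0.38 (adjusted p = 0.944, edgeR), and -0.28 without KC894RLL. Draxin (ENSMUSG00000029005, chr4:148098437-148130698, minus strand), a secreted guidance protein that repels axons, ranged from 1.35 to 3.20 CPM, with 18 to 58 counts. Its group means were 1.83 ± 0.315, 1.97 ± 0.242, 1.84 ± 0.399 and 2.06 ± 0.801 CPM, in the order wild type and knockout on the standard and then on the ketogenic diet. Its highest library was KC934R, and its fold changes ran from 0.01 to 0.18 with SE of 0.25 to 0.26.

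**Figure D4:**
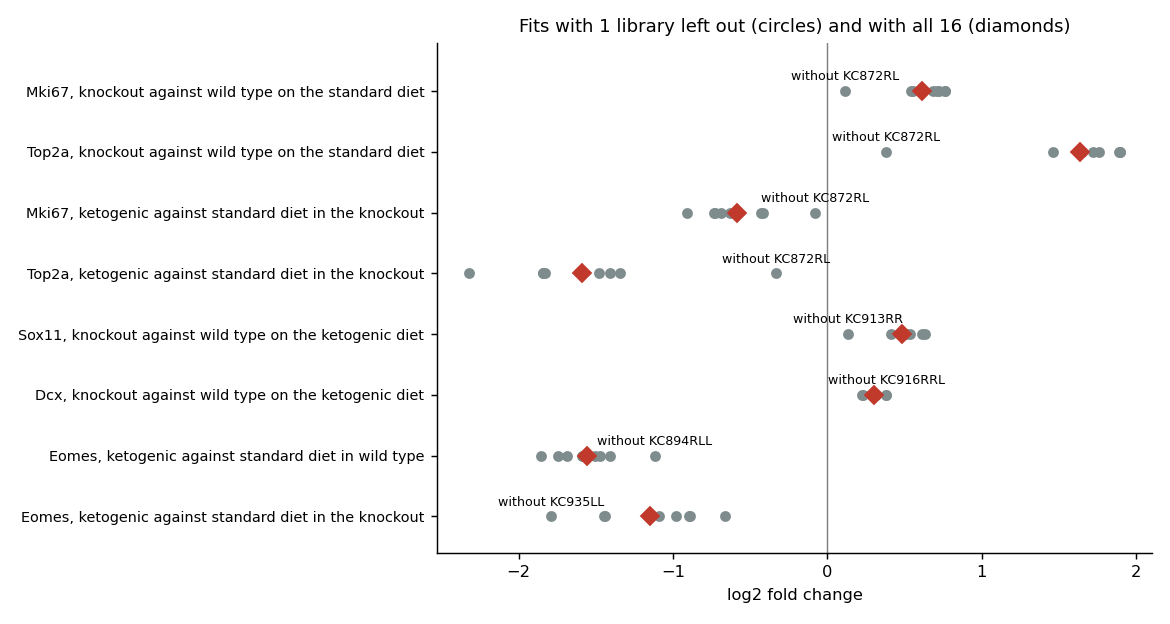
Log2 fold change (horizontal axis) of 8 gene and comparison pairs with all 16 libraries (diamond) and with 1 library left out (circles). The Top2a difference between the genotypes on the standard diet moves from 1.64 to 0.38 without KC872RL, and that of Sox11 on the ketogenic diet from 0.48 to 0.14 without KC913RR.

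Between the genotypes, 8 of 9 members were above 0 on the standard diet (median 0.10, all genes 0.0044), as were 51.1% of all tested genes. Without KC888LL 6 of 9 were. Without KC893RL, Sox4 (-0.036), Dcx (-0.035), Igfbpl1 (-0.20) and Eomes (-0.30) fell below 0. On the ketogenic diet 7 of 9 were above 0 (median 0.30, all genes 0.0035), as were 51% of all genes. Without KC934R, Mki67 (-0.046), Top2a (-0.27) and Draxin (-0.13) fell below 0 there. Between the diets, 6 of 9 were below 0 in the knockout (median -0.12) and 7 of 9 in wild type (median -0.25), beside 48.5% and 50.1% of all genes. The comparisons share groups, so these counts are not independent of one another.

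Per length of exon the order of the levels was led by Neurod1 at 12.1 ± 1.8 CPM per kilobase (SD over 16 libraries). Sox11 (3.35 ± 0.996), Sox4 (2.55 ± 0.448) and Dcx (2.42 ± 0.342) followed within each other's spread, then Igfbpl1 (1.46 ± 0.632) and Mki67 (0.639 ± 0.308). Draxin (0.371 ± 0.0863), Top2a (0.366 ± 0.479) and Eomes (0.296 ± 0.250) were lowest and did not differ beyond their spread. With the longest transcript as the length, Dcx was second at 3.37 and Top2a passed Draxin at 0.631 CPM per kilobase.

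Other genes of the lineage gave few calls. Of 15 tested progenitor and neuroblast genes, 0 were called between the genotypes on the standard diet (9 above 0, median 0.07). Of the 15, 3 were under 0.05 unadjusted, where 14.3% of all genes were. The smallest p belonged to Neurog2, a proneural factor of progenitors, which measured 0.565, 0.741, 0.556 and 0.392 CPM in wild type and 2.46, 2.97, 0.703 and 3.81 CPM in the knockout. All knockout libraries except KC888LL were above every wild-type one, and it was inside the wild-type range. The difference was 2.12 ± 0.50 (adjusted p = 0.192, edgeR), and without KC888LL it was called at 2.43 ± 0.42 (adjusted p = 0.0036, edgeR). Its levels on the ketogenic diet were 0.609, 0.378, 0.412 and 1.00 CPM in wild type and 1.54, 1.12, 1.82 and 0.352 CPM in the knockout. Here too 3 knockout libraries were above wild type, and KC935LL was below it. Averaged over the diets Neurog2 differed by 1.55 ± 0.36 (adjusted p = 0.0899, edgeR), which was called without KC888LL (1.70, adjusted p = 0.0042, edgeR) and without KC935LL (1.71, adjusted p = 0.037, edgeR). Between the diets in the knockout it differed by -1.03 ± 0.45 (adjusted p = 0.257, edgeR), and was called without KC888LL (-1.33, adjusted p = 0.0458, edgeR). Without KC888LL, 5.73% of all genes were called between the genotypes on the standard diet and 6.18% between the diets in the knockout. The genotype average called 880 of 17725 genes without KC888LL and 60 of 17722 without KC935LL. The list's smallest p between the genotypes on the ketogenic diet was that of Nhlh1, a helix-loop-helix factor of young neurons (-0.92, adjusted p = 0.433, edgeR). Between the diets it was that of Stmn1, a tubulin-binding protein (-0.34 in the knockout, adjusted p = 0.154, and -0.26 in wild type, adjusted p = 0.896, edgeR).

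Of the 16 immature neuron genes, 4 were above 0 between the genotypes on the standard diet (median -0.10) and 11 on the ketogenic diet (median 0.15). Between the diets 10 were above 0 in the knockout (median 0.19) and 3 in wild type (median -0.12). In these 4 comparisons edgeR called 0, with 7, 6, 7 and 2 genes under 0.05 unadjusted, where 14.3%, 9.22%, 16.9% and 5.46% of all genes were. The 10 pyramidal cell genes lay on the same side in 2 of these comparisons: 9 were below 0 between the genotypes on the standard diet (median -0.22) and 8 above 0 between the diets in the knockout (median 0.32). In the other two they lay on the opposite side, with 4 above 0 between the genotypes on the ketogenic diet (median -0.07) and 8 above 0 between the diets in wild type (median 0.04). Their part in the immature neuron values was not tested. Without KC888LL, 3 were called lower between the genotypes on the standard diet: the calcium-dependent kinase Camk4 (-0.56, adjusted p = 0.0213), Fxyd7 (-0.79, adjusted p = 0.0387) and the helix-loop-helix factor Neurod6 (-0.34, adjusted p = 0.0455, edgeR). In the same fits, Neurod6 (0.38, adjusted p = 0.0288), the semaphorin co-receptor Plxna4 (0.27, adjusted p = 0.0395) and Tubb3 (0.43, adjusted p = 0.0213) were called higher in knockouts fed the ketogenic diet than in those fed the standard one, as was the pyramidal cell gene Grik4 (0.38, adjusted p = 0.0261, edgeR). These calls stand beside 5.73% and 6.18% of all genes called in those fits. Fxyd7, a regulator of the sodium pump in neurons, was called lower with genotype averaged over the diets (-0.81 ± 0.13, adjusted p = 0.0223, edgeR). It measured 26.2, 21.9, 24.2 and 27.5 CPM in standard-diet wild types and 15.6, 14.6, 16.8 and 13.3 CPM in standard-diet knockouts. Ketogenic-diet levels were 20.9, 22.5, 18.3 and 24.3 CPM in wild type and 6.29, 14.1, 10.4 and 15.3 CPM in the knockout. Every knockout library lay below every wild-type library, although the call held in only 6 of the 16 fits that left out 1 library. Tubb3, a neuronal tubulin, had the smallest p between the diets in the knockout (0.38, adjusted p = 0.0682, edgeR) and was called without KC888LL, KC916RRL or KC935LL (0.43 to 0.45). Calb2, calretinin of immature granule neurons and interneurons, had the smallest p with diet averaged over the genotypes (-0.66, adjusted p = 0.0699, edgeR), and was called without KC900RLL (-0.75, adjusted p = 0.0074, edgeR).

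Among 12 tested neural stem cell genes, Lpar1, a lysophosphatidic acid receptor of stem cells and also of the oligodendrocyte lineage, was called lower on the ketogenic diet. It measured 29.4, 28.9, 23.0 and 20.6 CPM in standard-diet wild types and 22.4, 24.9, 23.4 and 24.5 CPM in standard-diet knockouts. The ketogenic-diet libraries held 20.5, 19.9, 17.0 and 13.1 CPM in wild type and 14.4, 13.4, 13.3 and 14.8 CPM in the knockout. No ketogenic-diet library reached the lowest standard-diet one. The difference was -0.77 ± 0.13 in the knockout (adjusted p = 0.0126, edgeR) and -0.65 ± 0.09 averaged over the genotypes (adjusted p = 0.0018, edgeR). Without KC888LL the knockout value was -0.77 (adjusted p = 0.0053, edgeR). Hopx, a quiescent stem cell gene, was then also called lower between the diets in the knockout (-0.61, adjusted p = 0.0213, edgeR), and the Notch target Hes5 lower between the genotypes on the standard diet (-0.86, adjusted p = 0.0371, edgeR). Without KC913RR, the progenitor filament gene Nes (-0.46, adjusted p = 0.0252) and the helix-loop-helix inhibitor Id4 (-0.23, adjusted p = 0.0233, edgeR) were called lower with diet averaged over the genotypes. That fit called 153 of 17752 genes for this average. With all libraries Lpar1 was the only gene of this list called in any comparison, so Hopx, Hes5, Nes and Id4 were not called there. Beside Lpar1, the oligodendrocyte precursor genes Sox10 (-0.60, adjusted p = 0.0141), Enpp6 (-2.04) and Bcas1 (-1.25) were also called lower in the knockout. Sox10 was not called without KC872RL, Enpp6 without KC913RR, or Bcas1 without KC913RR or KC916RRL. Over all tested genes, 202 were called between the diets in the knockout. With Xist as a covariate 7 were, with only the groups compared 9, and in the libraries with Xist and without Ddx3y 3. Thalamus and ependymal genes also lay below 0 between the diets in the knockout, most of them without a call. Of 6 thalamus genes 6 were below 0 (median -0.53, 5 under 0.05 unadjusted), and Tcf7l2 was called (-1.24 ± 0.28, adjusted p = 0.0418, edgeR), though in only 4 of the 8 fits that left out 1 library. Of 5 tested ependymal genes 5 were below 0 (median -0.84, 4 under 0.05 unadjusted), and 0 were called. In that comparison 48.5% of all genes were below 0, 16.9% were under 0.05 unadjusted and 1.16% were called. Ccdc153 was called lower with diet averaged over the genotypes (-1.45 ± 0.31, adjusted p = 0.0327, edgeR), in 3 of the 16 such fits. The part of these tissues and of the oligodendrocyte lineage in the Lpar1 difference was not tested. The 12 dentate granule cell genes were above 0 between the diets in 12 of 12 cases in wild type (median 0.17) and in 10 of 12 in the knockout. In edgeR 0 were called, and 0 and 2 were under 0.05 unadjusted, where 5.46% and 16.9% of all genes were. With all libraries the fold changes of this list ran from -0.25 to 0.50 between the diets in the knockout. Without KC888LL, calbindin (Calb1) was called higher in ketogenic-diet than in standard-diet knockouts (0.56, adjusted p = 0.0033, edgeR). Between the genotypes on the standard diet, all libraries gave 6 of the 12 above 0 and 6 below (median 0.072). Of these, 0 were called and 2 were under 0.05 unadjusted in edgeR, where 14.3% of all genes were. Once KC888LL was left out, Calb1 (-0.59, adjusted p = 0.0024) and the desmosome gene Dsp (-1.78, adjusted p = 0.0304, edgeR) were called lower there. The synaptic protein gene C1ql2 was called higher in the same fit (1.20, adjusted p = 0.0024, edgeR). Without KC888LL, 5.73% of all genes were called between the genotypes on the standard diet and 6.18% between the diets in the knockout.

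Over the 16 libraries the members varied together only in part. Of 36 pairs, 26 had a Pearson r of log2 CPM above 0, with a median of 0.239 and a range from -0.48 to 0.842. These correlations are descriptions, since the libraries share groups and scaling. Mki67 and Top2a were the closest pair (r = 0.842, Spearman's rho = 0.65), and without KC872RL and KC934R the r was 0.401. Igfbpl1 and Draxin (r = 0.705), and Dcx and Igfbpl1 (r = 0.583, rho = 0.624), came next among the pairs described here. At the other end were Mki67 and Neurod1 (r = -0.48, or -0.292 without KC872RL and KC934R) and the SoxC pair Sox4 and Sox11 (r = -0.401). The latter rests on KC842L and KC913RR, without which it was -0.068.

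**Figure D5:**
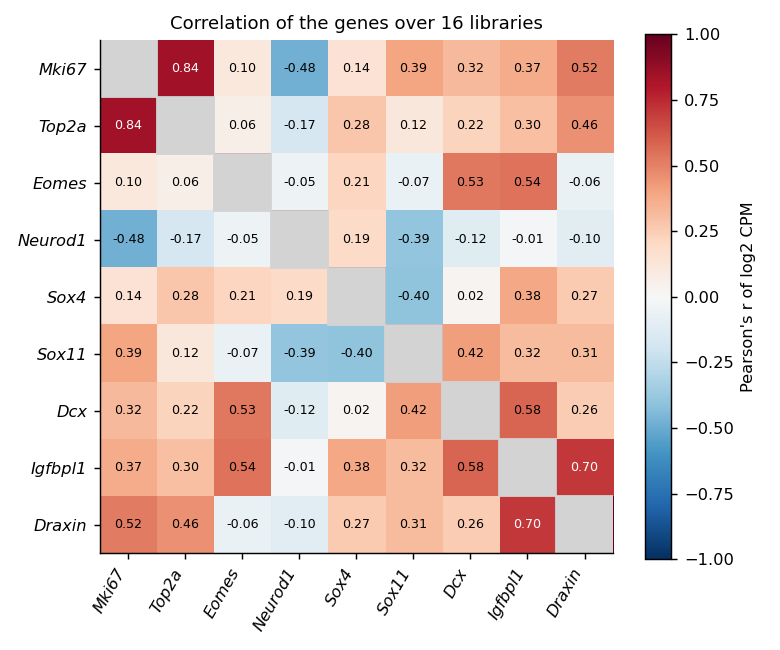
Pearson r of log2 CPM over the 16 libraries for each pair of the 9 genes, from -1 to 1 by color. Mki67 and Top2a form the strongest pair at 0.842, and Mki67 and Neurod1 have the lowest value at -0.48.

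Of 15412 genes with a mean of at least 1 CPM, those most like Mki67 were Abcd3 (r = 0.957), Cyp2j6 (0.916), Vcan (0.91), Id3 (0.909) and Bgn (0.898). Without KC872RL and KC934R their r ran from 0.678 to 0.88. None of the 5 belongs to the cell cycle lists. Among those most like Dcx were 4932438A13Rik (r = 0.864), Usp9x (0.861), Nexmif (0.856) and Gm6225 (0.856). Of these 4, 3 have at least 10000 exon bases, as have 9.5% of the ranked genes, and Dcx itself has 12647.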

How the data were processed

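The authors deposited 1 table of raw counts per gene for 16 mouse hippocampus RNA-seq libraries, with Ensembl identifiers and gene names. The submitters' processing notes name mm10 and DESeq2, and the aligner, counter and use of strand are not given in the sources used here. Columns were assigned to groups by the suffix of their names. They carry no replicate number, so they were not matched to single samples.

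The counts were filtered with filterByExpr by group, scaled by TMM and fitted with edgeR's quasi-likelihood test (edgeR 4.0.16, limma 3.58.1, R 4.3.3), with 1 coefficient per group, 12 residual degrees of freedom and robust dispersion. The 7 contrasts were tested and p-values adjusted over 17469 genes by Benjamini-Hochberg. The fit was checked on simulated data. Plots and correlations used log2 CPM with a prior count of 2 (Python 3.11.15, numpy 2.4.6, pandas 2.3.3, scipy 1.17.1). Alternatives were DESeq2 1.42.0, RLE scaling, no low-count filter, a minimum of 10 counts, only the groups compared, expression of Xist as a covariate, the 12 libraries with Xist over 100 CPM and Ddx3y under 10 CPM, and leaving out each library. Positions and exon lengths come from GENCODE M21 (GRCm38) and promoters from RefSeq (GRCm38.p6).

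The lowest counts per library were those of Eomes (4 to 56), Draxin (18 to 58) and Top2a (15 to 379). Named genes are the 9 members, Kcna1, the called genes of each list or the gene of smallest p where none was called, and the 5 genes most like Dcx and Mki67, of which 1 is not reported here. Others are said to be chosen after their values were seen. Members and lists were chosen with earlier results of these data known, so nothing here is independent support for them.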

Additional observations from a re-analysis of the deposited data

Results flagged for a closer look

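In 4 of 36 sets of 4 libraries (9 genes in 4 groups), the highest or lowest library lay far from the other 3, past Dixon's 95% critical value. For independent sets of normally spread values chance gives about 1 in 20, or 1.8 of 36. The sets here share their libraries and are not independent, so 4 is not read as an excess over 1.8. Of the 4 sets, 3 have KC872RL, a standard-diet knockout, as the far library. Mki67 was 16.7 CPM there and 6.01 to 6.98 CPM in the other 3 (gap 0.91 of the range). Top2a was 19.1 CPM there and 2.81 to 3.09 CPM in the others (gap 0.983). Neurod1 was lowest there, at 25.7 CPM against 32.2 to 32.8 CPM (gap 0.916). Sox4 was lowest in KC842L, a wild type on the ketogenic diet, at 8.89 CPM against 12.3 to 12.9 CPM (gap 0.857). KC872RL is also 1 of the 4 libraries with Ddx3y over 10 CPM, and the part of sex in these values was not tested.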

How the results depend on the processing

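No member was called under any alternative: over 63 results and 1119 alternative values, 81 changed sign and the lowest adjusted p was 0.0583 (Eomes, diet average, DESeq2). Of these, 18 results with 396 values and 37 sign changes are not named below. Counts of called genes over the whole table moved more. Without a low-count filter they were 18 and 11 between the genotypes (standard, then ketogenic diet), 2 for the interaction and 71 for the genotype average. With a minimum of 10 counts they were 2 between the genotypes on the standard diet and 9 for the genotype average. DESeq2 gave 169 and 45 between the genotypes, 677 and 12 between the diets (knockout, then wild type), 7 for the interaction, and 416 and 432 for the genotype and diet averages. With only the groups compared, the counts were 0 between the genotypes on the standard diet, and 9 and 11 between the diets. With Xist as a covariate they were 2 between the genotypes on the standard diet, 7 and 1 between the diets and 74 for the diet average, and Draxin between the diets in wild type (-0.021) and the Eomes interaction (-0.23) changed sign. With the 12 Xist libraries they were 0 and 1 between the genotypes, 3 and 0 between the diets, and 1 for each average. Signs then changed for Neurod1 (0.068) and Draxin (-0.0014) between the genotypes on the standard diet, Sox4 between them on the ketogenic diet (0.037), Draxin between the diets in wild type (-0.17), and the Eomes (-0.26) and Top2a (0.19) interactions. The cause of these shifts was not tested.

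Leaving out 1 library gave 0 to 1016 and 1 to 13 called genes between the genotypes, 28 to 1096 and 0 to 3 between the diets, and 6 to 880 and 51 to 457 for the genotype and diet averages. The highest of the counts over 100 came without KC888LL. Between the genotypes on the standard diet the log2 differences ranged from -0.036 to 0.21 for Sox4, -0.19 to 0.00021 for Neurod1, -0.20 to 0.44 for Igfbpl1, -0.30 to 0.62 for Eomes and -0.035 to 0.11 for Dcx. On the ketogenic diet they ranged from -0.15 to 0.091 for Sox4, -0.13 to 0.32 for Draxin, -0.20 to 0.0038 for Neurod1, -0.27 to 0.71 for Top2a, -0.046 to 0.45 for Mki67 and -0.049 to 0.83 for Eomes. Between the diets in the knockout they ranged from -0.22 to 0.23 for Draxin, -0.43 to 0.11 for Igfbpl1, -0.10 to 0.056 for Dcx and -0.22 to 0.28 for Sox11. In wild type they ranged from -0.16 to 0.0044 for Sox4 and -0.13 to 0.13 for Draxin. The interaction ranged from -1.90 to 0.087 for Top2a and -0.23 to 0.89 for Eomes. No paired analysis was possible because the columns carry no replicate numbers. Eomes, Draxin and Top2a had as few as 4, 18 and 15 counts in a library.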

Other observations

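Genes that resembled other members were listed after their values were seen. Those most like Eomes over the 16 libraries were Ano1 (r = 0.903), Gpr137b-ps (0.858), Zic1 (0.853), Frmpd2 (0.845) and Zic4 (0.842). Those most like Sox11 were Eprs (0.939), Dpy19l3 (0.931), Clcf1 (0.923), Ankrd33b (0.918) and Gm11549 (0.913). Clcf1, a cytokine of the interleukin 6 family, measured 7.76 CPM in KC913RR and 0.354 to 2.92 CPM in the other 15 libraries. Those most like Top2a were Fam114a1 (r = 0.917), the G2 and M genes Ckap2l (0.908) and Kif11 (0.896), Gpr17 (0.893) and Zfp488 (0.891). Without KC872RL and KC934R these fell to 0.797, 0.634, 0.568, 0.636 and 0.824. For Eomes and Sox11 the r without the 2 farthest libraries ran from 0.748 to 0.839 and from 0.742 to 0.854. Within the dentate granule cell list, C1ql2 had the smallest p between the genotypes on the standard diet (1.02 ± 0.22, adjusted p = 0.192, edgeR). Without KC888LL it was called at 1.20 (adjusted p = 0.0024, edgeR), as were 5.73% of all genes.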
